A study of Arabidopsis thaliana with 20 samples.

Results

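Organ boundary genes are transcription factor genes expressed in the narrow bands of slowly dividing cells that separate a new leaf or flower primordium from the meristem that forms it. The 10 genes described here were taken by locus identifier from a list of known boundary genes, by a rule that uses no measured value although earlier results of these data were known when it was written, out of 27562 loci in the deposited tables. They are the NAC genes CUP-SHAPED COTYLEDON 1 to 3 (CUC1 AT3G15170, CUC2 AT5G53950, CUC3 AT1G76420), LATERAL ORGAN BOUNDARIES (LOB AT5G63090), LATERAL SUPPRESSOR (LAS AT1G55580), the MYB genes REGULATOR OF AXILLARY MERISTEMS 1 (RAX1 AT5G23000) and LATERAL ORGAN FUSION 1 and 2 (LOF1 AT1G26780, LOF2 AT1G69560), and the ALOG genes LIGHT-DEPENDENT SHORT HYPOCOTYLS 3 and 4 (LSH3 AT2G31160, LSH4 AT3G23290). For each locus the estimated counts and the TPM (a level scaled by transcript length and by the library's total) were summed over its transcripts.

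The libraries came from RNA of dissected Arabidopsis thaliana meristems, in 4 groups of 5. They cover the shoot apical meristem (SAM) and the inflorescence meristem (IM) in wild-type Col-0 plants and in the double mutant plt3 plt7, which lacks the function of the transcription factors PLETHORA 3 and 7 in a Col-0 background. Each library pooled about 50 meristems. SAMs came from 7 d post germination (dpg) seedlings grown on mesh over agar, cut free of most hypocotyl tissue, the cotyledons and the first true leaves. IMs came from plants of 31 to 33 dpg grown on soil, with the youngest flower primordia left in place. By the labels the SAM libraries were harvested in 4 groups and the IM libraries in 3. The design asks how the genotypes differ within a tissue, how the tissues differ within a genotype, and whether the genotype effect depends on the tissue. Tissue cannot be told apart from age, growth substrate, light, harvest and the organs or primordia that dissection left on. In a pooled meristem fewer boundary cells and less RNA per boundary cell cannot be told apart.

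CUC1, CUC2 and CUC3 act redundantly to keep organs apart and to allow the homeobox gene SHOOT MERISTEMLESS (STM), which maintains meristem cells, to be expressed, and STM in turn promotes CUC transcription. LAS, RAX1, LOF1 and CUC3 are known for the initiation of axillary meristems in boundaries, LOB for brassinosteroid breakdown there, and LSH3 and LSH4 as genes acting downstream of CUC1. CUC1 and CUC2, but not CUC3, are targets of the microRNA miR164, which limits their domains.

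The miR164 sequences and their target sites are shown because miR164 is known to target CUC1 and CUC2 but not CUC3. A part of these sites in the differences between the CUC genes given below was not tested. The mature sequences were read from the TAIR10.1 genome at the annotated positions chr2:19520770-19520790 (miR164a), chr5:287586-287606 (miR164b) and chr5:9852684-9852704 (miR164c), all on the plus strand and 21 nt long. They are written 5′ to 3′ with the seed (bases 2 to 8) in capitals.
miR164a: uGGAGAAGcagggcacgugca
miR164b: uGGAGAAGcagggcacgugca
miR164c: uGGAGAAGcagggcacgugcg
The 3 microRNAs share 1 seed, and miR164a and miR164b are identical. The best match in CUC1 lay at chr3:5111137-5111157 (plus strand) and that in CUC2 at chr5:21902301-21902321 (minus strand), both in the coding part of exon 3. Capitals mark the bases that equal the reverse complement of miR164a.
CUC1 site: aGCACGUGuCCUGuUUCUCCA
CUC2 site: aGCACGUGuCCUGuUUCUCCA
The sites of CUC1 and CUC2 were the same 21 bases, of which 18 equalled the reverse complement. In CUC3 the best stretch matched in this way at 13 of 21 bases, and in the other 7 members at 12 to 15. G:U pairs were counted as mismatches throughout. With up to 4 mismatches allowed on the sense strand, 16 of the 27444 loci whose transcripts could be rebuilt held such a site (0.0583%), CUC1 and CUC2 among them. A match of letters is a description and not a measured cleavage site. The hairpin loci of miR164 were not analysed here.

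The libraries held 24.8 to 114.9 M estimated counts each (25.2 to 29.8 M in Col-0 SAM, 28.5 to 43.1 in plt3 plt7 SAM, 25.6 to 67.0 in Col-0 IM and 24.8 to 114.9 in plt3 plt7 IM). LOF2 and RAX1 had few counts in SAM. In the check of the mutant, PLT3 fell in both tissues (log2 fold change of −0.97 ± 0.14 SE in SAM, adjusted p = 2.06e-08, and −0.83 ± 0.07 in IM, adjusted p = 2.47e-27, DESeq2). PLT7 did not pass (−0.47 ± 0.17, adjusted p = 0.413, and −0.20 ± 0.11, adjusted p = 0.495), with at least 114 counts in every library. A list of 4 meristem genes summed to 22.1 to 49.3 TPM in SAM libraries and 80.1 to 103 TPM in IM libraries. Most of these sums came from STM and the homeobox gene BP, and not every gene of the list was higher in IM. The mean of CLV3 was lower in IM in both genotypes (2.43 TPM in Col-0 SAM and 1.26 TPM in Col-0 IM), with at most 26 counts in any library. WUS had at most 10 counts in any SAM library. A list of 6 floral genes summed to 2.11 to 5.87 TPM in SAM libraries and 774 to 855 TPM in IM libraries, and 4 photosynthetic leaf genes to 8597 to 15320 TPM in SAM and 1785 to 2213 TPM in IM. Lists of 3 xylem genes (45.4 to 86.6 TPM in SAM, 13.4 to 21.7 TPM in IM) and 2 phloem genes (16.3 to 22.5 TPM and 4.42 to 8.998 TPM) were higher in SAM, the direction of LOB and LSH4. The sums of all 5 lists were thus separate between tissues, and the part of these lists in the tissue results was not tested. Of the SAM libraries, Col-0 replicate 1 stood apart: it was lowest of its group in 8 of the 9 members measurable there, in STM (8.32 TPM against 12.7 to 16.2) and in the related homeobox gene BP (12.9 TPM against 19.0 to 24.2), and highest in the Rubisco gene RBCS1A (8882 TPM against 5502 to 6912). Some values without it are given beside the results. The log2 rise from SAM to IM in Col-0 was also 2.63 for CUC1, 2.96 for RAX1 and 6.47 for LOF2 without it, against 2.81, 2.75 and 6.31 with it. The log2 difference of LAS between genotypes in SAM was −0.16 without it and 0.01 with it.

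None of the members overlapped another annotated gene or shared a 31-nt word with another locus. CUC1 (chr3:5109782-5111608, plus strand), CUC2 (chr5:21901704-21903854, minus), CUC3 (chr1:28671806-28674045, minus), LOF1 (chr1:9270952-9272713, plus), LOF2 (chr1:26157702-26159094, plus) and RAX1 (chr5:7696135-7698022, plus) each have 3 exons. LOB (chr5:25308516-25311019, minus) also has 3 exons, LSH4 (chr3:8326628-8328557, plus) has 2, and LAS (chr1:20763844-20765823, plus) and LSH3 (chr2:13277710-13279498, plus) have 1 exon each.

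Between tissues, 7 of the 10 members were higher in IM than in SAM, 2 were lower and 1 was not called, in Col-0 and in plt3 plt7 alike. CUC1, CUC2 and the MYB genes RAX1 and LOF2 increased most, LOB and LSH4 decreased, and LSH3 was the member not called. To be called, a gene needed an adjusted p-value (Benjamini-Hochberg, over all genes tested) under 0.1 and a level more than 25% higher in 1 of the groups than in the other. By this rule 57.1% of 19627 genes were called between tissues in Col-0 (26.7% higher in IM and 30.5% lower) and 57.8% of 19689 in plt3 plt7 (26.4% and 31.3%), so that a call between tissues was common among all genes. The median log2 fold change of the 10 members was 1.42 in Col-0 and 1.36 in plt3 plt7, against 0.02 over all genes tested in either genotype. In normalised counts the SAM and IM libraries did not overlap for 9 of 10 members in Col-0, beside 57.9% of all genes tested, and for 8 of 10 in plt3 plt7, beside 56.1%.

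**Figure D1:**
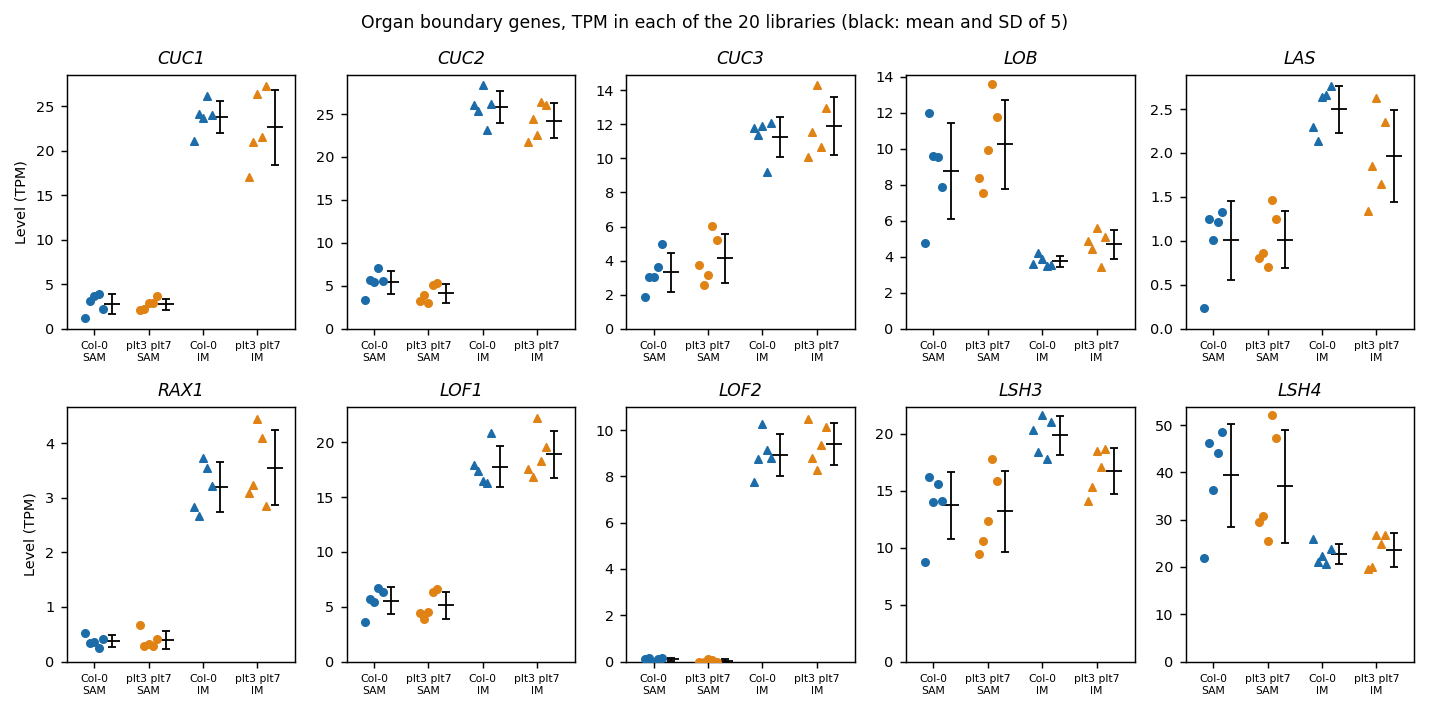
TPM (linear axis from 0) of each organ boundary gene in the 20 libraries, circles for SAM and triangles for IM, with Col-0 in blue and plt3 plt7 in orange; black marks give mean and SD of 5 libraries. SAM and IM levels are separate for CUC1, CUC2, CUC3, RAX1, LOF1 and LOF2, LOB is lower in IM, and the genotypes overlap in every panel and tissue.

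CUC1 stood at 1.16, 3.07, 3.63, 3.87 and 2.23 TPM in the Col-0 SAM libraries (replicates 1 to 5) and at 21.1, 24.1, 23.7, 26.2 and 24.0 TPM in the Col-0 IM libraries. In plt3 plt7 it stood at 2.08, 2.22, 2.88, 2.93 and 3.66 TPM in SAM and at 17.0, 21.0, 26.4, 21.5 and 27.3 TPM in IM. Every IM library lay above every SAM library. In normalised counts CUC1 was 7.03-fold higher in IM in Col-0 (95% interval 5.39 to 9.17, adjusted p = 9.11e-46) and 6.40-fold higher in plt3 plt7 (5.15 to 7.96, adjusted p = 1.40e-61).

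CUC2 measured 3.32, 5.69, 5.40, 7.06 and 5.57 TPM in Col-0 SAM and 26.0, 25.4, 28.3, 23.1 and 26.2 TPM in Col-0 IM. The plt3 plt7 libraries held 3.28, 3.88, 2.94, 5.07 and 5.38 TPM in SAM and 21.7, 24.4, 22.6, 26.4 and 26.1 TPM in IM. The tissues did not overlap, and CUC2 rose 3.88-fold in Col-0 (3.27 to 4.61) and 4.62-fold in plt3 plt7 (3.85 to 5.54). CUC3 rose less. Its levels were 1.89, 3.03, 3.03, 3.65 and 4.99 TPM in Col-0 SAM and 11.8, 11.4, 11.9, 9.20 and 12.1 TPM in Col-0 IM, and 3.71, 2.59, 3.15, 6.06 and 5.20 TPM in plt3 plt7 SAM and 10.08, 11.5, 14.3, 10.7 and 12.9 TPM in plt3 plt7 IM. The increase of CUC3 was 2.77-fold in Col-0 (2.17 to 3.54) and 2.27-fold in plt3 plt7 (1.77 to 2.91).

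The axillary meristem genes LAS, a GRAS family member, and RAX1, an R2R3 MYB gene, had the lowest mean levels of the members in IM and, apart from LOF2, in SAM. LAS had 0.235, 1.25, 1.01, 1.22 and 1.32 TPM in Col-0 SAM, 2.30, 2.14, 2.63, 2.66 and 2.77 TPM in Col-0 IM, 0.800, 0.856, 0.701, 1.47 and 1.24 TPM in plt3 plt7 SAM, and 1.34, 1.86, 2.63, 1.65 and 2.36 TPM in plt3 plt7 IM. The tissues were separate in Col-0 but overlapped in plt3 plt7, where the lowest IM library lay below the highest SAM library. LAS rose by 1.01 ± 0.29 on the log2 scale in Col-0 (adjusted p = 8.90e-04) and by 0.62 ± 0.23 in plt3 plt7 (adjusted p = 0.0126). Without Col-0 SAM replicate 1, in which 12 counts were found, the Col-0 value was 0.77. RAX1 ranged from 0.239 to 0.662 TPM over the SAM libraries, which is 7 to 24 counts, and from 2.67 to 4.44 TPM over the IM libraries. It rose 6.74-fold in Col-0 (4.68 to 9.70) and 6.99-fold in plt3 plt7 (4.87 to 10.05).

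LOF1 and LOF2 are paralogous MYB genes that act in organ separation, LOF1 with the larger part. LOF1 ranged from 3.57 to 6.74 TPM in SAM and from 16.3 to 22.3 TPM in IM, and rose 2.59-fold in Col-0 (2.19 to 3.06) and 2.92-fold in plt3 plt7 (2.42 to 3.51). LOF2 was at the limit of detection in SAM, with 3, 3, 0, 2 and 3 counts in Col-0 and 0, 0, 4, 2 and 0 counts in plt3 plt7. In IM the counts of LOF2 were 292, 278, 572, 199 and 209 in Col-0 (7.74 to 10.3 TPM) and 296, 185, 794, 283 and 280 in plt3 plt7 (8.26 to 10.5 TPM). Summed over the group and set against library totals, 1550 counts in IM against 11 in SAM gave a 94.2-fold higher share in Col-0 (exact binomial 95% interval 52.5 to 189). In plt3 plt7, 1838 against 6 counts gave a 211-fold higher share (96.9 to 577). These intervals cover counting error only. The transcript AT1G69560.2 of LOF2 was estimated at 0 in all SAM libraries and at 0 to 38.4% of LOF2 in IM libraries, a share that kallisto divides between transcripts with most sequence in common.

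LOB, the founding member of the LATERAL ORGAN BOUNDARIES DOMAIN family, moved the other way. Its Col-0 SAM libraries held 4.75, 12.0, 9.61, 9.54 and 7.90 TPM and its Col-0 IM libraries 3.59, 4.24, 3.88, 3.50 and 3.54 TPM. In plt3 plt7 LOB was at 8.37, 7.57, 9.95, 13.6 and 11.8 TPM in SAM and 4.88, 4.41, 5.58, 3.43 and 5.12 TPM in IM. No IM library reached the SAM libraries of its own genotype, although Col-0 SAM replicate 1 came close. LOB fell by 1.48 ± 0.19 on the log2 scale in Col-0 (adjusted p = 3.75e-14) and by 1.45 ± 0.18 in plt3 plt7 (adjusted p = 4.57e-16), and without Col-0 SAM replicate 1 the Col-0 decrease was 1.61.

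LSH4 and LSH3 were the most abundant members in SAM and diverged between tissues. LSH4 had 21.8, 46.2, 36.3, 44.0 and 48.6 TPM in Col-0 SAM and 25.8, 21.1, 22.2, 20.5 and 23.9 TPM in Col-0 IM. The values in plt3 plt7 were 29.5, 30.8, 25.4, 52.1 and 47.3 TPM in SAM and 19.6, 19.97, 26.7, 24.8 and 26.8 TPM in IM. On the TPM scale the groups overlapped, through replicate 1 of the Col-0 SAM and replicate 3 of the plt3 plt7 SAM. In normalised counts LSH4 fell by 1.08 ± 0.15 in Col-0 (adjusted p = 2.64e-12) and by 1.00 ± 0.16 in plt3 plt7 (adjusted p = 1.08e-09). LSH3 was at 8.72, 16.2, 14.1, 15.6 and 14.1 TPM in Col-0 SAM and 20.3, 18.4, 21.7, 17.8 and 21.1 TPM in Col-0 IM, and at 9.42, 10.6, 12.4, 17.8 and 15.9 TPM in plt3 plt7 SAM and 14.1, 15.3, 18.5, 17.1 and 18.7 TPM in plt3 plt7 IM. Its log2 difference between tissues was 0.22 ± 0.12 in Col-0 (95% interval −0.00 to 0.45) and −0.01 ± 0.13 in plt3 plt7 (−0.27 to 0.26), which did not meet the call rule.

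LSH3 depended on the scaling. With library totals instead of DESeq2's size factors, the median log2 fold change of all genes between tissues moved from 0.02 to 0.24 in Col-0 and to 0.26 in plt3 plt7, and the share of calls that were higher in IM from 46.6% to 63.9% and from 45.8% to 64.0%. Under that scaling LSH3 was called higher in IM in Col-0 (0.44, adjusted p = 8.50e-04, DESeq2) but not in plt3 plt7 (0.23, adjusted p = 0.120, DESeq2). The 7 increases and 2 decreases of the other members had the same direction in every fit made. LOF2 did not reach the count minimum when an IM library of the genotype compared was left out, and was then not tested.

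**Figure D2:**
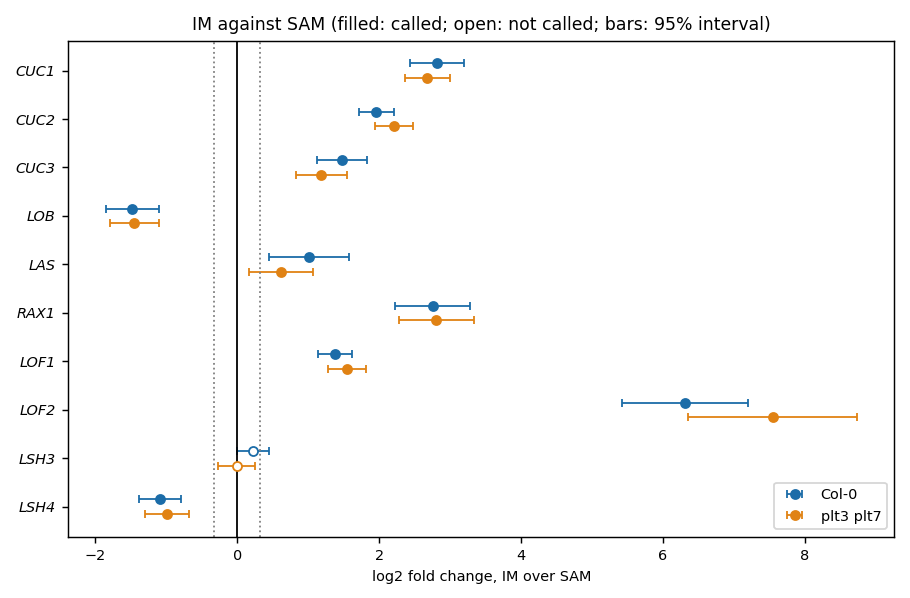
Log2 fold change of IM over SAM in normalised counts for each organ boundary gene, Col-0 in blue and plt3 plt7 in orange, with 95% intervals; filled points were called, open points were not, and dotted lines mark a 25% difference. Points for 7 genes lie to the right of the upper line and those of LOB and LSH4 to the left of the lower line in both genotypes, and the fitted values of LOF2 rest on a few SAM counts.

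The order of the members within a tissue therefore changed. In Col-0 SAM, LSH4 (39.4 ± 10.8 TPM, SD, n = 5) stood above LSH3 (13.7 ± 3.0) and LOB (8.76 ± 2.68), followed by LOF1 (5.56 ± 1.23), CUC2 (5.41 ± 1.34), CUC3 (3.32 ± 1.13) and CUC1 (2.79 ± 1.11), with LAS (1.01 ± 0.45), RAX1 (0.379 ± 0.107) and LOF2 (0.0949 ± 0.0561) last. LSH4 was separate from LSH3 and RAX1 from LOF2, whereas the ranges of all other neighbours overlapped. In Col-0 IM the order was CUC2 (25.8 ± 1.9 TPM), CUC1 (23.8 ± 1.8), LSH4 (22.7 ± 2.2), LSH3 (19.9 ± 1.7), LOF1 (17.8 ± 1.9), CUC3 (11.3 ± 1.2), LOF2 (8.94 ± 0.91), LOB (3.75 ± 0.31), RAX1 (3.19 ± 0.45) and LAS (2.50 ± 0.27). The first 5 of these overlapped with their neighbours, LOF1 was separate from CUC3 and LOF2 from LOB. LOB thus went from the third place in SAM to the eighth in IM, and CUC1 from the seventh to the second. Summed over the 10 members, the level was 80.4 ± 20.1 TPM in Col-0 SAM and 139.6 ± 6.1 TPM in Col-0 IM.

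Ratios between related members, taken within each library, do not depend on the scaling between libraries. They were compared with two-sided exact permutation tests of 5 against 5 libraries, in which the smallest possible p is 0.0079, and adjusted over the 16 comparisons made. Between tissues, 8 of 8 ratios passed an adjusted p of 0.1. Single genes called between tissues made up 57.1% of those tested in Col-0 and 57.8% in plt3 plt7. The share for ratios of other gene pairs was not computed. CUC2 is the second gene in both CUC ratios, and the ratios of LOF1 to LOF2 in SAM rest on 0.1 TPM added to both genes. CUC1 was at 0.499 times the level of CUC2 in Col-0 SAM and 0.924 times in Col-0 IM (geometric means, exact p = 0.0079, adjusted p = 0.0159). In plt3 plt7 the same ratio went from 0.682 to 0.924 (exact p = 0.0397, adjusted p = 0.0635), and the groups overlapped. This last difference no longer passed in 6 of 22 alternatives, with adjusted p-values up to 0.127. They were those without plt3 plt7 SAM replicates 1, 2, 4 or 5 or plt3 plt7 IM replicates 3 or 5. Leaving out a Col-0 library could change only the adjustment.

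CUC3 moved against CUC2 in the opposite direction, from 0.609 to 0.438 times its level in Col-0 and from 0.987 to 0.491 times in plt3 plt7 (each exact p = 0.0079, adjusted p = 0.0159, no overlap). The ratio of LSH3 to LSH4 rose from 0.356 to 0.876 in Col-0 and from 0.363 to 0.714 in plt3 plt7, again with no overlap. LOF1 exceeded LOF2 1.98-fold in Col-0 IM and 2.00-fold in plt3 plt7 IM. In SAM the ratio of LOF1 to LOF2 was far higher, but its size is set by the 0.1 TPM added to both genes, since LOF2 had 0 counts in 4 SAM libraries.

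**Figure D3:**
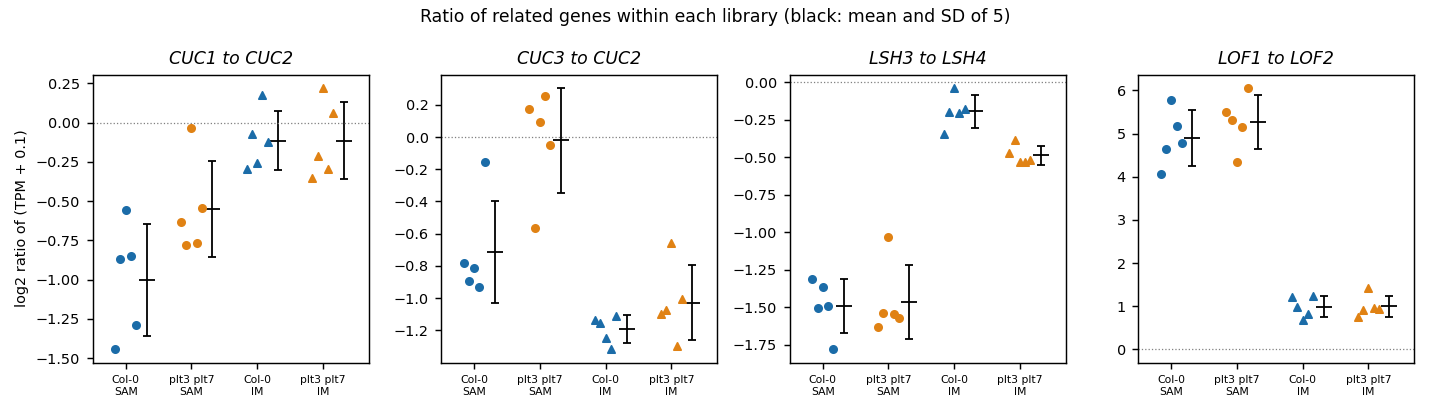
Log2 ratio of TPM + 0.1 between related organ boundary genes within each library, circles for SAM and triangles for IM, with Col-0 in blue and plt3 plt7 in orange; black marks give mean and SD of 5 libraries, and the dotted line marks equal levels. CUC3 to CUC2 is higher in plt3 plt7 SAM than in Col-0 SAM apart from 1 library of each, and LSH3 to LSH4 separates the genotypes in IM only.

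Between genotypes, no member was called in either tissue. In SAM, 0 of the 9 members tested were called by DESeq2, by edgeR or by limma, beside 0.453% of 19185 genes tested (87 genes by DESeq2). By DESeq2, 1 of 9 had an unadjusted p under 0.05, beside 1336 of the 19185 genes. In IM, 0 of 10 were called by any of the 3 tools, beside 1.53% of 19432 genes (297 genes by DESeq2). By DESeq2, 2 of 10 had an unadjusted p under 0.05, beside 1990 of the 19432 genes. The median log2 fold change of the members was −0.02 in SAM and 0.05 in IM, against −0.01 and −0.00 over all genes tested. In neither tissue did a member's groups separate in normalised counts, which 1.69% of all genes did in SAM and 2.50% in IM.

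In SAM the member below an unadjusted 0.05 was CUC2, with normalised counts of 188 in Col-0 and 147 in plt3 plt7 (log2 fold change −0.38, 95% interval −0.71 to −0.05, adjusted p = 0.614, DESeq2). Within the 4 harvest groups the CUC2 difference ran from −0.57 to −0.02, lower in plt3 plt7 in each. CUC3 had the opposite sign, with 114 and 146 normalised counts (0.37, −0.00 to 0.73, adjusted p = 0.717, DESeq2), and from 0.01 to 0.70 within the 4 harvest groups. Neither gene passed by itself. The ratio of CUC3 to CUC2 was 0.581, 0.539, 0.570, 0.524 and 0.898 in the Col-0 SAM libraries and 1.13, 0.675, 1.07, 1.19 and 0.967 in the plt3 plt7 SAM libraries. Replicate 5 of Col-0 and replicate 2 of plt3 plt7 lay in the range of the other genotype. The mean ratio was 0.609 in Col-0 and 0.987 in plt3 plt7, a log2 difference of 0.70 (exact p = 0.0159, adjusted p = 0.0282). It was positive within all 4 harvest groups, from 0.11 to 1.19, and was 0.68 without Col-0 SAM replicate 1. The difference passed in all 22 alternatives, with adjusted p-values from 0.0254 to 0.0706. Those alternatives that left out an IM library could change only the adjustment. In IM the same log2 difference was 0.17 and did not pass (exact p = 0.159, adjusted p = 0.212), except without plt3 plt7 IM replicate 4 (0.23, adjusted p = 0.0181). The ratio of CUC1 to CUC2 was also higher in plt3 plt7 SAM (log2 difference 0.45, exact p = 0.0556, adjusted p = 0.0808), but passed in only 13 of 22 alternatives, with values from 0.32 to 0.56. It no longer passed without an added 0.1 TPM, or when any SAM library other than Col-0 replicate 3 or plt3 plt7 replicate 2 was left out.

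In IM the members below an unadjusted 0.05 were LSH3 and LAS. LSH3 had normalised counts of 1149 in Col-0 and 960 in plt3 plt7 (log2 fold change −0.26 ± 0.08, 95% interval −0.43 to −0.10, adjusted p = 0.0635, DESeq2). Its adjusted p passed, but its difference was smaller than the minimum of 0.32 on the log2 scale. LSH3 was lower in plt3 plt7 in each of the 3 IM harvest groups, by −0.39 to −0.11, and over the alternatives its log2 difference ran from −0.30 to −0.21 with adjusted p-values from 0.0347 to 0.377. Its relative LSH4 differed by 0.03 (−0.17 to 0.24). The ratio of LSH3 to LSH4 was 0.788, 0.873, 0.976, 0.868 and 0.884 in Col-0 IM and 0.722, 0.767, 0.694, 0.691 and 0.698 in plt3 plt7 IM. The genotypes did not overlap, with a log2 difference of −0.29 (exact p = 0.0079, adjusted p = 0.0159) that passed in all 22 alternatives. Those alternatives that left out a SAM library could change only the adjustment. In SAM this ratio was 0.356 and 0.363 (exact p = 0.889). The difference of the genotype effects on these ratios between tissues was not tested.

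LAS in IM was at 164 and 128 normalised counts (log2 fold change −0.36, −0.70 to −0.01, adjusted p = 0.453, DESeq2) and lower in plt3 plt7 in each of 3 harvest groups. LOB in IM was at 111 and 138 (0.33, −0.03 to 0.69, adjusted p = 0.556, DESeq2) and higher in plt3 plt7 in each of 3 harvest groups. For the abundant members the intervals were narrow: in IM that of CUC1 reached from a log2 fold change of −0.29 to 0.11, CUC2 from −0.26 to 0.05, LOF1 from −0.09 to 0.28 and LSH4 from −0.17 to 0.24. In SAM they were wider, for instance −0.54 to 0.49 for CUC1 and −0.73 to 1.13 for RAX1. The genotype effect was not found to differ between tissues for any member. In the interaction 0 of 10 were called by DESeq2, beside 0.354% of 20348 genes, and 0 by edgeR. By DESeq2, 0 of 10 had an unadjusted p under 0.05, beside 1688 of the 20348 genes.

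**Figure D4:**
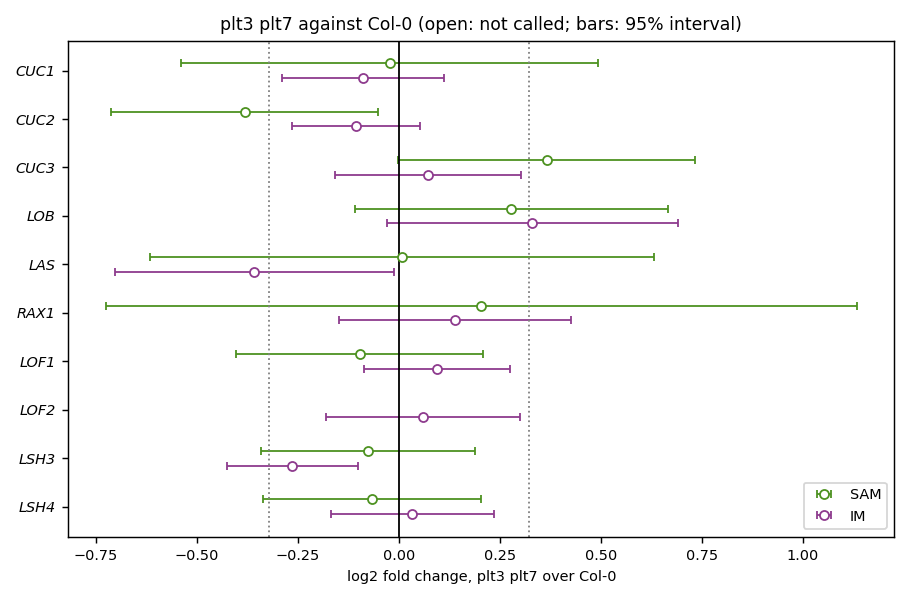
Log2 fold change of plt3 plt7 over Col-0 in normalised counts for each organ boundary gene, SAM in green and IM in purple, with 95% intervals; open points were not called, and dotted lines mark a 25% difference. LOF2 had too few counts in SAM for a test, and the intervals of CUC2 in SAM and of LAS and LSH3 in IM exclude 0 before adjustment.

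Within the SAM, the levels of several members went with that of STM from library to library, as did those of many other genes. LSH3 had 8.72 TPM where STM had 8.32 and 17.8 TPM where STM had 17.0, and over the 10 SAM libraries of both genotypes log2(TPM + 0.1) of LSH3 and log2 TPM of STM gave r = 0.978 and rho = 0.952 (permutation p = 4e-05 and 8e-05, adjusted over 19 relations 7.6e-04 and 0.00152). Without the 2 libraries farthest from the median of STM, r was 0.949. The next closest were LOF1 (r = 0.943, rho = 0.891, permutation p = 2.4e-04 and 0.00108, adjusted p = 0.00228 and 0.0103) and LSH4 (r = 0.885, rho = 0.855, permutation p = 0.00218 and 0.00274, adjusted p = 0.0104 and 0.0135). Across the 9 members measurable in SAM, r ranged from −0.59 (RAX1, adjusted permutation p = 0.107) to 0.98, and 8 of 9 passed an adjusted permutation p of 0.1, each with an r of at least 0.748. Of the 19184 genes tested in SAM other than STM, 18.3% reached that r, and the median r of all genes was 0.49. LSH3 was reached by 0.0261% of them, LOF1 by 0.547%, LSH4 by 3.31%, and the other 5 by 6.78% to 18.3%. Without Col-0 SAM replicate 1, r was 0.97 for LSH3, 0.91 for LOF1, 0.83 for LAS and 0.82 for LSH4, and 4 of 9 members and 11.5% of all genes reached 0.748. Leaf markers ran against STM in these libraries: RBCS1A was at 8882 and 7568 TPM in the replicates 1 of Col-0 and plt3 plt7, where STM was lowest (8.32 and 9.43 TPM), and at 5768 and 5009 TPM in the replicates 4, where STM was highest (16.2 and 17.0 TPM). LHCB2.1, which encodes a light-harvesting protein, went from 556 and 424 TPM to 315 and 320 TPM. The part of this in the relation to STM was not tested. Without the 2 farthest libraries r ranged from 0.05 (RAX1) to 0.95, with CUC1 at 0.48. Each harvest group held too few libraries for an r of its own. As deviations from the harvest group means, r was 0.97 for LSH3, 0.91 for LOF1 and positive in 8 of 9 members. In IM, where levels varied less, 6 of 10 members passed with an r of at least 0.614, which 5.63% of 19431 genes reached. There r ranged from −0.56 (LOF2) to 0.83 (LAS), and CUC2, LOB and RAX1 showed little relation (r = 0.37, 0.06 and 0.07, adjusted permutation p = 0.325, 0.874 and 0.874). By rho, CUC1 and LOF1 did not pass in IM (adjusted permutation p = 0.119 and 0.123), and LOF2 passed with a negative rho (−0.61, adjusted permutation p = 0.0981). Without the 2 farthest IM libraries r ranged from −0.32 (LOF2) to 0.83 (LOF1), with CUC1 at 0.25.

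**Figure D5:**
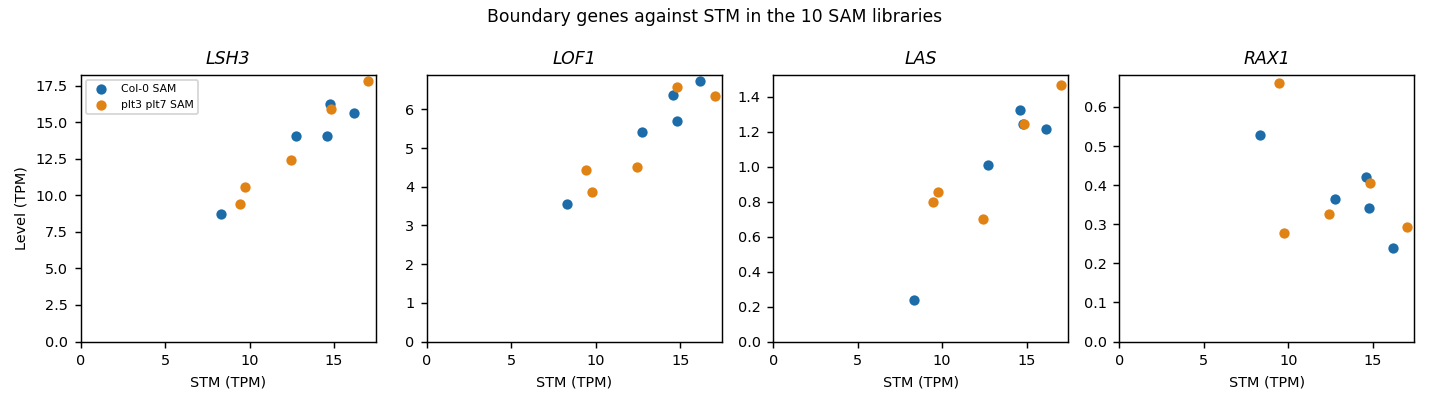
TPM of LSH3, LOF1, LAS and RAX1 (vertical axes) against TPM of STM (horizontal axes) in the 10 SAM libraries, Col-0 in blue and plt3 plt7 in orange. LSH3, LOF1 and LAS increase with STM in both genotypes, with Col-0 replicate 1 at the lower left, while RAX1 does not.

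The spread between SAM libraries was smaller when a member was expressed relative to STM, a ratio chosen after the values had been seen. A gene that goes with STM tends to lose spread in such a ratio, so the smaller spread restates the correlations above. The share of all genes that lose spread in this way was not computed. The median coefficient of variation of the 9 members fell from 28.1% in TPM to 18.6% as a ratio in Col-0 SAM and from 26.8% to 16.5% in plt3 plt7 SAM, smaller for 8 of 9 members in each. The Col-0 values rest on SAM replicate 1: without it they were 12.8% and 9.06%, with 5 of 9 members smaller. Leaving out a plt3 plt7 SAM library kept 8 of 9 smaller, with medians of 25.3% to 29.6% in TPM and 10.6% to 18.8% as a ratio. In Col-0 SAM the ratio also fell to 7.68% without replicate 5, and in plt3 plt7 SAM to 10.6% without replicate 3. In IM it went from 9.83% to 8.33% in Col-0 and from 14.8% to 11.1% in plt3 plt7. STM itself was higher in IM than in SAM, by 1.66 ± 0.11 on the log2 scale in Col-0 and 1.58 ± 0.13 in plt3 plt7. Relative to STM in the same library, 4 members were higher in IM and 5 lower in each genotype at an adjusted p of 0.1 (exact permutation tests, adjusted over 40 comparisons). How many of all genes would pass relative to STM was not computed, here or between genotypes. Since STM rose, a gene with an unchanged level falls in this ratio. LAS and LOF1, called higher in IM by themselves, and LSH3, not called, rose less than STM. In Col-0, CUC1 rose 2.24-fold, RAX1 1.75-fold and CUC2 1.21-fold against STM. LOB fell 8.78-fold, LSH4 6.64-fold, LSH3 2.70-fold, LAS 1.52-fold and LOF1 1.24-fold, while CUC3 did not pass (1.15-fold lower, adjusted p = 0.159) except without Col-0 SAM replicate 2 (adjusted p = 0.0318). The result for RAX1 no longer passed without Col-0 SAM replicates 3 or 4 or Col-0 IM replicates 3, 4 or 5, and that for LAS without Col-0 SAM replicates 2, 3, 4 or 5 or Col-0 IM replicates 1, 2, 3 or 5, with adjusted p-values up to 0.132 and 0.153. The fourth member to rise in each genotype was LOF2, whose ratio rests on the added 0.1 TPM, and in plt3 plt7 LOF1 was the member that did not pass (adjusted p = 0.556). Between genotypes in IM, where STM differed by −0.12 ± 0.08, CUC3 relative to STM was 1.14-fold higher in plt3 plt7 without overlap (exact p = 0.0079, adjusted p = 0.0212), LOB 1.33-fold and LOF1 1.15-fold higher (each exact p = 0.0159, adjusted p = 0.0353). These 3 passed with each library left out in turn, which LSH3, LSH4 and LAS, at adjusted p-values of 0.0794, 0.0855 and 0.0941, did not. By themselves CUC3, LOB and LOF1 differed in IM by 0.07, 0.33 and 0.09 on the log2 scale, and none was called. The fall of STM is thus a part of these ratios. In SAM, CUC2 (1.24-fold lower, exact p = 0.0238, adjusted p = 0.0501), LOB (1.25-fold higher, exact p = 0.0397, adjusted p = 0.0722) and CUC3 (1.30-fold higher, exact p = 0.0556, adjusted p = 0.0855) passed with all libraries, and none of them with each library left out in turn.

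Other genes known from organ boundaries gave the members' surroundings. Of 28 such genes listed, 25 were in the tables. Between tissues, 14 of the 23 tested were higher in IM, 6 lower and 3 not called in both genotypes, with a median log2 fold change of 1.09 in Col-0 and 0.68 in plt3 plt7. The relatives of RAX1 rose with it: RAX3 by 2.88 ± 0.40 and RAX2 by 2.46 ± 0.23 in Col-0. AT5G01305 rose by 2.06 ± 0.20. SUPERMAN (SUP), which sets the boundary between stamens and carpels, had 0 counts in all SAM libraries and 555 counts over the Col-0 IM libraries, at least 124-fold higher when set against a floor of 3 counts over the Col-0 SAM group. The relatives of LSH4 decreased: LSH1 fell by 2.97 ± 0.17 in Col-0, and LSH2 had 228 counts over the Col-0 SAM libraries and 5 over the Col-0 IM libraries, a 68.2-fold lower share of counts in IM (exact binomial 95% interval 28.8 to 212). Of LSH1 to LSH4, LSH3 was thus the gene without a called difference. The B3 gene NGAL1 (AT2G36080) fell by 2.35 ± 0.38, and BLADE-ON-PETIOLE 1 (BOP1), a co-regulator at leaf boundaries, by 1.59 ± 0.16. Between genotypes, 0 of 21 of these genes were called in SAM by DESeq2 or edgeR, beside 0.453% of all genes by DESeq2. An unadjusted p under 0.05 was found for 1 of them, beside 1336 of 19185 genes. In IM 1 of 23 was called, beside 1.53% of all genes, the B3 gene AT3G11580 (319 and 246 normalised counts in the wild type and the mutant, −0.37 ± 0.12, adjusted p = 0.0626, DESeq2), which edgeR did not call. The homeobox gene KNAT2 had a smaller adjusted p (678 and 542 normalised counts, adjusted p = 0.0136, DESeq2). Its log2 difference of −0.3198 fell just short of the minimum of 0.3219. The genotypes did not overlap for 3 of 23, beside 2.50% of all genes: AT3G11580, KNAT2 and RAX3 (0.48 ± 0.20, adjusted p = 0.294, DESeq2).

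Among 20347 other genes, those whose log2 normalised counts over the 20 libraries were most like each member were named by their Pearson r, as a description. For CUC1 they were the homeobox gene AtHB23 (r = 0.988) and AT3G50170 (0.988), for CUC2 AT2G28790 (0.992) and AT3G04960 (0.991), and for CUC3 RLP29 (0.967) and GAPCP-1 (0.962). LAS was most like APK4 (0.904) and AT1G25500 (0.890), RAX1 like KCS13 (0.985) and AT1G21540 (0.983), and LOF2 like MUR4 (0.987) and AT2G42730 (0.985). LOF1 was most like the MYB gene MYB17 (0.990) and STM (0.988). LOB was most like the tubulin gene TUB1 (0.974) and AT5G50000 (0.969), and LSH4 like AGP18 (0.964) and SFGH (0.963). LSH3, which changed least between tissues, had the lowest values, with AT5G50150 (0.861) and the BEL1-like homeobox gene BLH8 (0.821). The 20 libraries fall into SAM and IM, a split that these genes share. As deviations from the group means, the pairs of members gave a median r of 0.73 over 36 pairs in the 10 SAM libraries, positive in 28, and of 0.24 over 45 pairs in the 10 IM libraries, positive in 30. Every pair with a negative r in SAM held RAX1. The r of other gene pairs was not computed, nor that of these pairs without Col-0 SAM replicate 1.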

How the data were processed

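The authors trimmed reads with fastp v.0.23.4 and assigned them to TAIR10.1 cDNA with kallisto v.0.46.1, as given in the labels and methods; a strand option is not given in the sources used here, and the kit was strand-specific. The deposited tables hold estimated counts per transcript (not normalised) and the authors' TPM for 48266 transcripts. Both were summed per locus, and estimated counts were rounded. Replicates are labelled as biological; no pair in a group differed by as little as sampling noise (chi-square per degree of freedom of at least 6.25).

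Following the study's methods, DESeq2 1.42.0 (Wald test, R 4.3.3) was run with harvest group as covariate within tissue, nested in tissue for the interaction, and with no covariate between tissues, on genes that reached 10 counts in 5 or more libraries. Calls needed an adjusted p-value under 0.1 over all genes and a difference above 25% (log2 0.32). Ratios used TPM + 0.1. Alternatives were edgeR 4.0.16, limma 3.58.1 on log2(TPM + 1) or log2(TPM + 0.1), TMM factors, library totals, no count filter, a threshold of 0.05, a transcript length offset, no harvest group, a replicate block, 1 fit of 20 libraries and leaving out each library. Tests were tried on simulated data. Sequences were read from the RefSeq TAIR10.1 assembly, from which 47942 of 48148 rebuilt transcripts had the deposited length. Partner genes named are those called or not overlapping between genotypes and the 4 with the largest change each way between tissues in Col-0. For likeness, the 2 highest Pearson r per member are given. Members and lists were chosen with earlier results of these data known. Python 3.11.15 with scipy 1.17.1 was used. Depth runs from 24.8 to 114.9 M counts; intervals of single counts cover counting error only.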

Additional observations from a re-analysis of the deposited data

Results flagged for a closer look

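In 3 of the 40 sets of 5 libraries (each member in each group), 1 library lay far from the other 4, with a gap to its nearest neighbour above 0.71 of the whole range; chance gives about 1 in 20. CUC3 in Col-0 IM replicate 4 stood at 9.20 TPM, below the next value of 11.4 TPM. The other 2 were in Col-0 SAM replicate 1, where LAS stood at 0.235 TPM against 1.01 TPM for the next library and LSH3 at 8.72 TPM against 14.1 TPM.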

How the results depend on the processing

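No member was called between genotypes, or in the interaction, in any alternative. Between tissues, 9 members were called in each genotype, and 8 to 9 with a library left out, where LOF2 missed the count minimum. LSH3 in plt3 plt7, at −0.01 in the main test, was called higher in IM with limma at 0.35 on log2(TPM + 1) and 0.37 on log2(TPM + 0.1), where the median of all genes was 0.32 and 0.37; in Col-0, at 0.22, it was called at 0.53 and 0.56, beside medians of 0.29 and 0.32. Counts over all genes moved more than the members. In SAM, 87 calls became 50 at an adjusted p under 0.05, 5 with edgeR, 51 with the length offset, 134 without harvest group, and 3 and 5 with limma on log2(TPM + 1) and log2(TPM + 0.1). In IM, 297 became 146 with edgeR and 119 and 120 with limma. The interaction's 72 became 11 with edgeR. Leaving out a library gave 15 to 172 calls in SAM, 190 to 479 in IM, 39 to 240 for the interaction, 10553 to 10963 between tissues in Col-0 and 10911 to 11102 in plt3 plt7. It gave 9 to 12 of the 16 ratio comparisons between members (11 in the main test) and 21 to 26 of the 40 relative to STM (27 in the main test), where 4 libraries in a group raise the smallest possible p. With the replicate number as a block, 149 genes were called in SAM and 143 in the interaction, and no member. The labels do not tie a number to a day. Same-numbered libraries of the genotypes shared a harvest group, a term of the main test, in 4 of 5 pairs in SAM and 5 of 5 in IM, and their deviations correlated above 0.1 in 1 of 5 and 3 of 5 (−0.12 to 0.52 over all 4 comparisons). LOF2 and RAX1 in SAM are limited by their few counts.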
